A study of Homo sapiens with 6 samples.

Results

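A set of 9 genes of the MHC class I antigen presentation pathway were followed in H9 cells after CDK9 inhibition, chosen by name as 9 of the 61541 genes of the deposited count table. They were the heavy chains HLA-B, HLA-C, HLA-E and HLA-F, the light chain B2M, the peptide transporter subunits TAP1 and TAP2, the loading factor TAPBP (tapasin) and the class I transactivator NLRC5. H9 is an established cell line of cutaneous T cell lymphoma (CTCL), a lymphoma of skin-homing T cells, and the labels gave its genotype as wild type. AZD4573 is a small-molecule inhibitor of CDK9, the kinase of the elongation factor P-TEFb that releases paused RNA polymerase II. One group was treated with 50 nM AZD4573 and the other with the vehicle DMSO, with 3 libraries of bulk RNA-seq each. The labels and figure legends gave 4 h of AZD4573, the discussion of the study gave 6 h, and the DMSO samples carried no time of their own. All libraries came from 1 cell line, and no label said that the 3 replicates of a group were separate cultures, so p-values measured the spread between these libraries, which may be technical.

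MHC class I molecules display peptides from inside the cell to CD8 T cells and NK cells. A polymorphic heavy chain pairs with beta-2-microglobulin in the endoplasmic reticulum (ER), the proteasome and peptidases supply the peptides, the TAP transporter pumps them into the ER, and tapasin bridges the empty heavy chain to TAP until a peptide is bound. Transcription of the heavy chains and B2M rests on an enhanceosome of RFX, CREB/ATF and NF-Y factors joined by NLRC5. These genes and the TAP genes also rest on interferon and NF-kB elements bound by IRF and STAT factors and by NF-kB. Loss of class I is a known route by which lymphomas escape T cells.

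The promoters of HLA-B, HLA-F, B2M and TAP1 are shown because these genes span the range of responses under TMM scaling described here, from the largest rise to a fall. Each sequence holds the 250 bases before the RefSeq gene start (GRCh38.p14), written in the direction of the gene, and capitals mark any of 4 motifs found on either strand: the interferon-stimulated response element core (GAAA, any 2 bases, GAAA), the NF-kB consensus, the CRE half-site TGACG and the CCAAT box. HLA-B lay at chr6:31357180-31357429 on the minus strand, HLA-F at chr6:29723184-29723433 on the plus strand, B2M at chr15:44711267-44711516 on the plus strand and TAP1 at chr6:32853705-32853954 on the minus strand.
HLA-B: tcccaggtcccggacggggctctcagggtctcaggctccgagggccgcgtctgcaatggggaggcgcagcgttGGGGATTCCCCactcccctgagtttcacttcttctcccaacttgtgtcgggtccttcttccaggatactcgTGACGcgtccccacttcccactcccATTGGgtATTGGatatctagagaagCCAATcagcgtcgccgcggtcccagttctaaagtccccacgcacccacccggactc
HLA-F: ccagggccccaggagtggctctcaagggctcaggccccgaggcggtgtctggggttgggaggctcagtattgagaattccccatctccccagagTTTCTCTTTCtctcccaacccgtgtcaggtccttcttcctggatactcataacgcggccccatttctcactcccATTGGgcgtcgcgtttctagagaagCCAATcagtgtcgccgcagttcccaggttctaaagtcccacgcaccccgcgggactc
B2M: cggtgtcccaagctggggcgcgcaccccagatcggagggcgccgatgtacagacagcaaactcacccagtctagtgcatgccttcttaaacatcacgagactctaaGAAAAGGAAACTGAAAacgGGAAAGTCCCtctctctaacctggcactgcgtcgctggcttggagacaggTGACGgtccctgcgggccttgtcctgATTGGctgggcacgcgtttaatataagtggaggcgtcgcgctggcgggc
TAP1: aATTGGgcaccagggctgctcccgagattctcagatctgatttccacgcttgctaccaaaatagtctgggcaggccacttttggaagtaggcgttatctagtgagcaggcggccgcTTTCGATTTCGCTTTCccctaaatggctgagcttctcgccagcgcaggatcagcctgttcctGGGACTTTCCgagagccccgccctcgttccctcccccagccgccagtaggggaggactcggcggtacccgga
B2M and TAP1 both carried an interferon core and an NF-kB match in this window. Their log2 fold changes were 0.68 and -0.24 under TMM scaling and -0.06 and -0.98 under mitochondrial mRNA scaling. Any part of these motifs in the changes was not tested. Of the 9 genes, 7 had a promoter entry, and HLA-E and NLRC5 had none. The interferon core was found in 5 of the 7 against 3.02% of all 35116 promoters of this length, the NF-kB consensus in 5 of 7 against 5.21%, the CRE half-site in 4 of 7 against 21.2% and the CCAAT box in 5 of 7 against 32%. The interferon core was present in HLA-F, B2M, TAP1, TAP2 and TAPBP and was not found in these windows of HLA-B and HLA-C. Such matches describe letters in a window and are not evidence of binding.

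Between 52101868 and 76571157 counts were assigned to genes per library, the 3 DMSO libraries being the deepest, and the 9 genes together took 0.289% to 0.303% of the counts in DMSO and 0.364% to 0.373% in AZD4573. Values are given as CPM, the counts of a gene relative to a library size scaled by the TMM method, and a limit of 3 counts corresponded to 0.0392 to 0.0576 CPM. Of 12 T cell markers, 10 stood at 1 CPM or more in every library, but the T cell genes CD2 (0.105 CPM in DMSO) and CD7 (0.602 CPM) were close to 0 and CD4 was low (3.83 CPM). Myeloid and dendritic markers summed to at most 0.511 CPM in any library, and the B cell gene MS4A1 was at 0.192 CPM in DMSO, while the B cell gene CD79A rose from 57.8 to 93.6 CPM and its partner CD79B fell from 5.66 to 3.46 CPM. EPCAM, an epithelial marker, was read at 155 CPM in DMSO and 134 CPM in AZD4573. In bulk RNA, fewer cells of a type and less RNA per cell cannot be told apart. Under TMM scaling the T cell marker sum was 1233 to 1304 CPM in DMSO and 1767 to 1813 CPM in AZD4573. Of the 11 T cell markers tested, 9 were called higher and 1 lower (CD28, log2 -0.43), against 37.3% and 37.4% of all genes. The sum is given on this scale only, and its part in the results below was not tested.

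With TMM scaling, B2M, the 4 heavy chains, TAPBP and TAP2 rose upon AZD4573 treatment, and TAP1 and NLRC5 fell, whereas with scaling to mitochondrial mRNA all 9 had log2 fold changes under 0, of which HLA-F and B2M did not pass the test. By the quasi-likelihood test of edgeR, with p adjusted by the Benjamini-Hochberg method over 17678 tested genes, 7 of the 9 genes were called higher against a background of 37.3% of all tested genes, and 2 were called lower against 37.4%. At a fold change of at least 1.5, 2 of the 9 (HLA-F and B2M) were higher and 0 were lower, against 22.7% and 23.7% of all genes. All 9 genes had groups of libraries that did not overlap, 7 higher and 2 lower, where 39.0% and 38.7% of all genes did so. The median log2 fold change of the 9 genes was 0.25, against 0.03 over all genes tested.

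**Figure D1:**
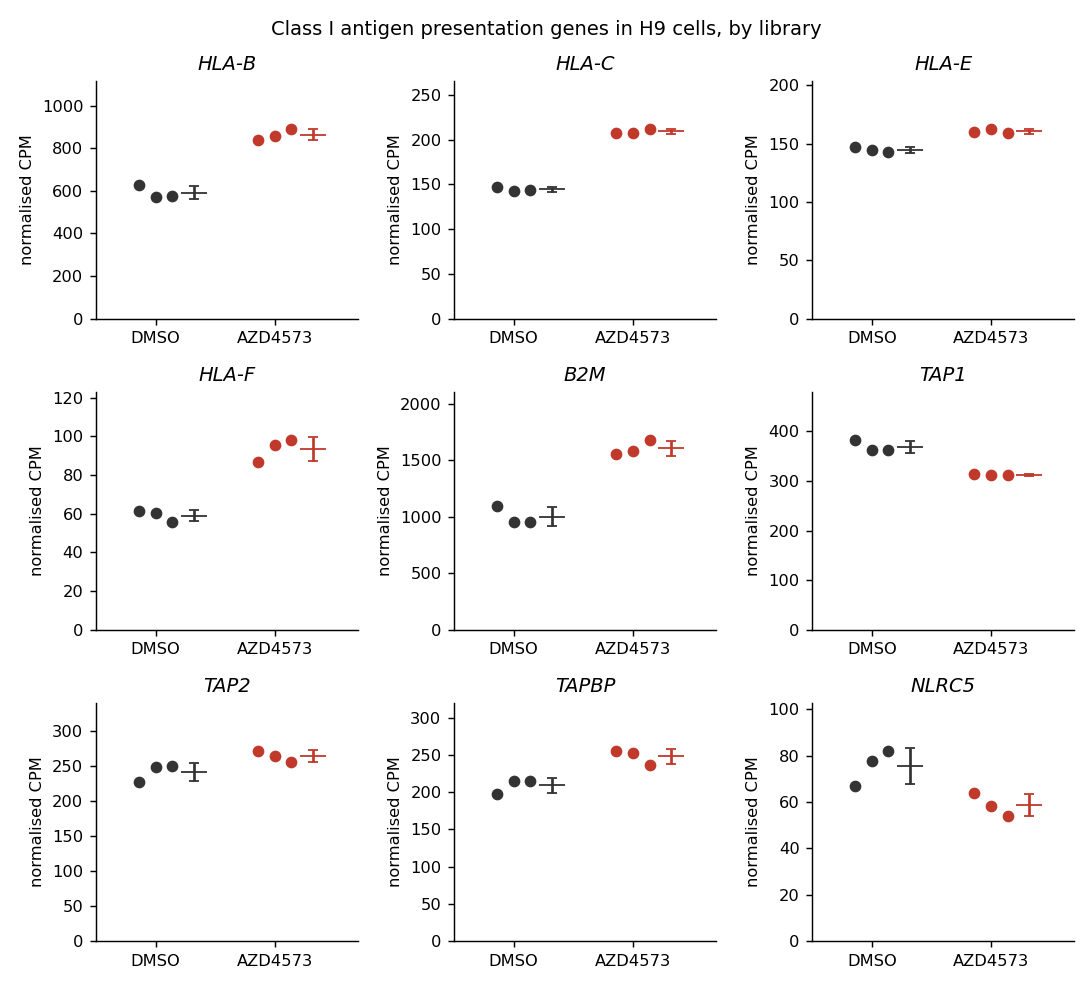
Normalised CPM (TMM scaling, linear axes from 0) of the 9 genes in each of the 3 DMSO and 3 AZD4573 libraries; points are libraries, and the line with bars beside them gives the mean and SD. Every gene separates the groups, with B2M at 953 to 1095 CPM in DMSO and 1551 to 1681 CPM in AZD4573, and TAP1 and NLRC5 lower in AZD4573.

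The classical heavy chains present peptides to CD8 T cells, and HLA-B (ENSG00000234745, chr6:31353872-31367067, minus strand) had the highest level per length of exon of the 4 heavy chains examined. Its levels were 628, 573 and 574 CPM in the DMSO libraries and 839, 860 and 893 CPM in the AZD4573 libraries. The lowest AZD4573 library lay well above the highest DMSO library. The mean moved from 591 ± 31.7 to 864 ± 26.9 CPM (SD, n = 3 each), a log2 fold change of 0.55 (SE 0.0475, 95% interval 0.44 to 0.65) with an adjusted p of 1.8e-07 in edgeR's quasi-likelihood test. The raw counts behind these values were 49267, 41930 and 42254 in DMSO and 42703, 49016 and 54480 in AZD4573, and these unscaled counts overlapped between the groups. HLA-B ranked at the 73.4th percentile of log2 fold changes over all tested genes. In the annotation, 47.3% of the exon bases of HLA-B were shared with other genes, all of which had 0 counts in all 6 libraries.

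HLA-C (ENSG00000204525, chr6:31268749-31272130, minus strand), also a classical heavy chain and the main ligand of killer immunoglobulin-like receptors, moved by almost the same amount as HLA-B. DMSO libraries held 147, 142 and 144 CPM, and AZD4573 libraries held 208, 207 and 212 CPM. The replicates lay close together in both groups, without overlap. The means of 144 ± 2.45 and 209 ± 2.82 CPM gave a log2 fold change of 0.53 (SE 0.0390, 95% interval 0.45 to 0.62, adjusted p = 3.2e-08 by edgeR). The ratio of HLA-C to HLA-B within a library does not depend on the scaling between libraries, and it was 24.5% ± 0.896 in DMSO and 24.2% ± 0.501 in AZD4573, with overlapping groups (exact permutation p = 0.8, 3 against 3).

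HLA-E (ENSG00000204592, chr6:30489509-30494194, plus strand), a non-classical heavy chain that presents leader peptides of other class I molecules to NKG2 receptors, rose the least of the heavy chains. It was at 147, 145 and 143 CPM in DMSO and 161, 163 and 159 CPM in AZD4573. The gap between the groups was small but larger than the spread within them, at 145 ± 2.38 against 161 ± 2.06 CPM. The log2 fold change was 0.15 (SE 0.0392, 95% interval 0.07 to 0.24, adjusted p = 0.0034 by edgeR). This call was lost with library size as the sole scaling (log2 0.05, adjusted p = 0.266 by edgeR) and without a filter on low counts (log2 0.11, adjusted p = 0.0847 by edgeR). Relative to HLA-B, HLA-E dropped from 24.5% ± 0.950 to 18.6% ± 0.717, a log2 change of -0.40 that was seen in all 3 AZD4573 libraries (exact permutation p = 0.1, the smallest that 3 against 3 allows, and 0.14 after adjustment over 7 ratios).

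HLA-F (ENSG00000204642, chr6:29722775-29738528, plus strand), a non-classical heavy chain that can reach the surface as an open conformer, had the lowest level per length of the 4 in DMSO and the largest log2 fold change. The DMSO libraries held 61.2, 60.5 and 55.6 CPM, and the AZD4573 libraries 86.5, 95.6 and 98.3 CPM. Again the groups stood apart, and the AZD4573 libraries spread more widely than the DMSO libraries. The means of 59.1 ± 3.08 and 93.5 ± 6.18 CPM gave a 1.58-fold rise (log2 0.66, SE 0.0577, 95% interval 0.54 to 0.79, adjusted p = 1.9e-07 by edgeR). The ratio of HLA-F to HLA-B overlapped between the groups, at 10.0% ± 0.488 and 10.8% ± 0.439 (exact permutation p = 0.2, adjusted p = 0.233 over the 7 ratios). Other genes, HLA-F-AS1 among them, shared 28.0% of the exon bases of HLA-F, each at no more than 1.14 CPM in its higher group. With the 4 heavy chains summed, the log2 fold change was 0.50 (SE 0.0443, 95% interval 0.40 to 0.59, adjusted p = 2.3e-07 by edgeR), from 984, 920 and 916 CPM in DMSO to 1294, 1326 and 1362 CPM in AZD4573.

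B2M (ENSG00000166710, chr15:44711358-44718851, plus strand) encodes the invariant light chain that class I heavy chains pair with to display peptides stably. B2M had the largest log2 fold change of the 9 genes. It was measured at 1095, 958 and 953 CPM in DMSO and at 1551, 1579 and 1681 CPM in AZD4573. DMSO replicate 1 was the highest of its group yet remained far below the lowest AZD4573 library. The mean rose 1.60-fold, from 1002 ± 80.7 to 1604 ± 68.7 CPM (log2 0.68, SE 0.0571, 95% interval 0.56 to 0.80, adjusted p = 1.3e-07 by edgeR). B2M was at the 77.9th percentile of log2 fold changes over all tested genes. Set against the 4 heavy chains of the same library, B2M went from 106% ± 4.18 to 121% ± 2.31, a log2 change of 0.18 (exact permutation p = 0.1, the smallest possible, adjusted 0.14), and it was higher in 3 of 3 AZD4573 libraries than in any DMSO library.

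**Figure D2:**
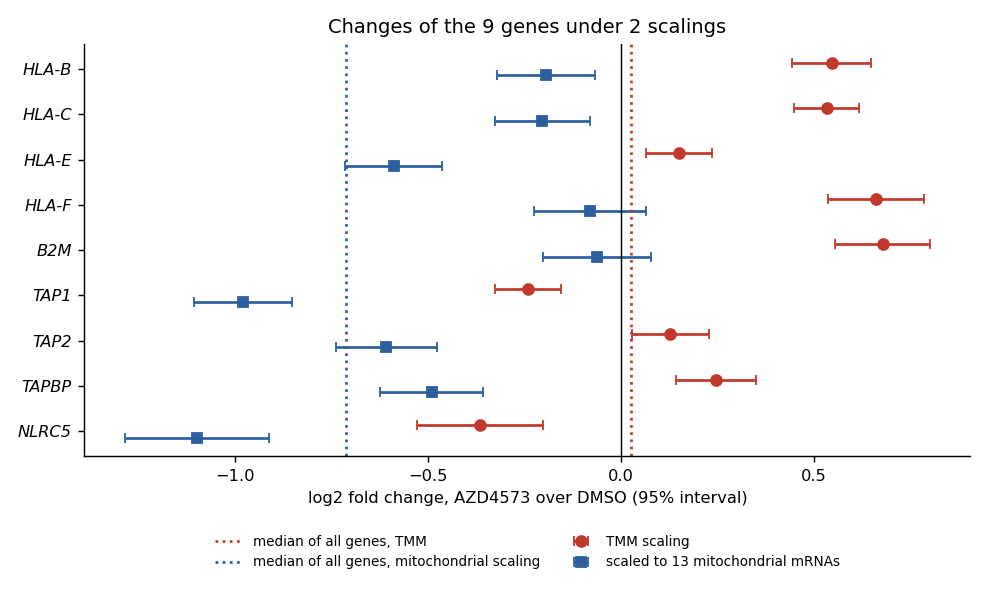
Log2 fold change (AZD4573 minus DMSO) of each of the 9 genes with its 95% interval under TMM scaling (circles) and under scaling to 13 mitochondrial mRNAs (squares), with the median of all genes under each as a dotted line. With TMM, 7 genes lie above 0 and TAP1 and NLRC5 below it; with mitochondrial scaling all 9 lie below 0, at -0.06 for B2M and -1.10 for NLRC5.

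TAP1 and TAP2 form the heterodimer that carries peptides into the ER, and their transcripts moved in opposite directions under TMM scaling, while both were lower under mitochondrial scaling. TAP1 (ENSG00000168394, chr6:32845209-32853816, minus strand) was at 383, 362 and 362 CPM in DMSO and at 315, 311 and 311 CPM in AZD4573. Every AZD4573 library was lower than every DMSO library. The mean fell from 369 ± 12.2 to 312 ± 1.998 CPM, a log2 fold change of -0.24 (SE 0.0399, 95% interval -0.33 to -0.15, adjusted p = 9.6e-05 by edgeR). An antisense gene, PSMB8-AS1, shared 14.2% of the exon bases of TAP1 and stood at 10.5 CPM in DMSO and 10.9 CPM in AZD4573, and the counting was not stated to use strand.

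TAP2 (ENSG00000204267, chr6:32821833-32838739, minus strand) held 227, 248 and 249 CPM in DMSO and 272, 265 and 255 CPM in AZD4573. The groups did not overlap, but DMSO replicates 2 and 3 came close to AZD4573 replicate 3. The means of 242 ± 12.5 and 264 ± 8.23 CPM gave a log2 fold change of 0.13 (SE 0.0463, 95% interval 0.03 to 0.23, adjusted p = 0.0228 by edgeR). This was the least secure of the 9 calls. It was lost without DMSO replicate 1 (log2 0.08, adjusted p = 0.0939 by edgeR), without AZD4573 replicate 1 (log2 0.10, adjusted p = 0.0820 by edgeR) and without AZD4573 replicate 2 (log2 0.12, adjusted p = 0.0723 by edgeR), as well as with library size alone (log2 0.02, adjusted p = 0.681 by edgeR) and without the filter on low counts (log2 0.09, adjusted p = 0.175 by edgeR). A readthrough gene of TAP2 and HLA-DOB, with 34.9 CPM in DMSO and 41.2 CPM in AZD4573, covered 19.5% of the exon bases of TAP2, and the counting may have split reads between them. The ratio of TAP1 to TAP2 was 169%, 146% and 145% in DMSO and 116%, 117% and 122% in AZD4573. It was thus lower in all 3 AZD4573 libraries, by -0.37 on the log2 scale (153% ± 13.4 against 118% ± 3.14, exact permutation p = 0.1, the smallest possible, adjusted 0.14).

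TAPBP (ENSG00000231925, chr6:33299694-33314284, minus strand), the bridge between TAP and the empty heavy chain, held 197, 215 and 215 CPM in DMSO and 256, 252 and 237 CPM in AZD4573. All AZD4573 libraries were higher than all DMSO libraries, at 248 ± 10.2 against 209 ± 10.4 CPM. The log2 fold change was 0.25 (SE 0.0477, 95% interval 0.14 to 0.35, adjusted p = 0.000366 by edgeR). An antisense gene, ENSG00000289100, overlapped 21.0% of the exon bases of TAPBP, and its own level was 4.74 ± 0.559 CPM in DMSO and 10.3 ± 1.34 CPM in AZD4573. Relative to TAP1, TAPBP went from 56.8% ± 4.61 to 79.5% ± 2.98, with no overlap between the groups (log2 change 0.49, exact permutation p = 0.1, the smallest possible, adjusted 0.14).

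NLRC5 (ENSG00000140853, chr16:56989485-57083531, plus strand), the NLR family coactivator that drives class I genes through their enhanceosome, was the least abundant of the 9 per length of transcript and had the lowest log2 fold change. It was at 66.8, 77.5 and 82.0 CPM in DMSO and at 63.6, 58.1 and 54.0 CPM in AZD4573. The groups did not overlap, although DMSO replicate 1 lay near AZD4573 replicate 1. The mean fell from 75.4 ± 7.83 to 58.6 ± 4.85 CPM, a log2 fold change of -0.37 (SE 0.0758, 95% interval -0.53 to -0.20, adjusted p = 0.000644 by edgeR). In raw counts NLRC5 went from 5238, 5673 and 6042 in DMSO to 3239, 3311 and 3295 in AZD4573. Set against the summed heavy chains, NLRC5 fell from 8.05% ± 1.13 to 4.42% ± 0.479, or 0.550 of its DMSO value (log2 change -0.86, exact permutation p = 0.1, the smallest possible, adjusted 0.14). This was the largest change of the 7 ratios computed.

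**Figure D3:**
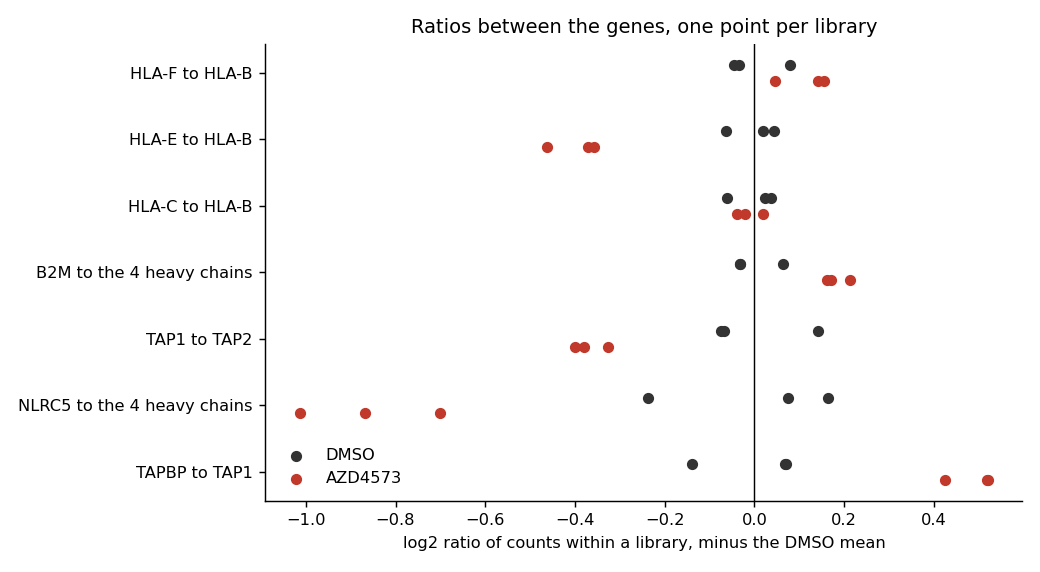
Ratios between genes of the same library on the log2 scale, less the mean of the DMSO libraries, for 7 ratios; each point is 1 of the 3 DMSO or 3 AZD4573 libraries. The groups overlap for HLA-C to HLA-B and HLA-F to HLA-B and are apart for the other 5 ratios, the widest change being NLRC5 to the heavy chains at -0.86.

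The direction of most of these changes depended on what the libraries were scaled to. The 13 mRNAs encoded by mitochondrial DNA are made by their own polymerase. They took 3.04% to 3.22% of counts in DMSO and 4.67% to 4.98% in AZD4573. Scaling to them takes their amount per cell as unchanged by AZD4573, which was not tested. With libraries scaled to these mRNAs, the median log2 fold change over all genes was -0.71 in place of 0.03, and 67.2% of genes were called lower and 12.1% higher by edgeR's quasi-likelihood test. On that scale 7 of the 9 genes were lower and 0 were higher. NLRC5 (log2 -1.10) and TAP1 (-0.98) had the lowest values, followed by TAP2 (-0.61), HLA-E (-0.59), TAPBP (-0.49), HLA-C (-0.20) and HLA-B (-0.19). HLA-F (-0.08, adjusted p = 0.293 by edgeR) and B2M (-0.06, adjusted p = 0.403 by edgeR) did not pass the test. Relative to the median of all genes, the values were nearly the same under both scalings, at 0.65 and 0.65 for B2M, 0.64 and 0.63 for HLA-F, 0.52 and 0.52 for HLA-B, 0.51 and 0.51 for HLA-C, -0.27 and -0.27 for TAP1 and -0.39 and -0.39 for NLRC5. A change of scaling shifts every gene by nearly the same amount. The order of the 9 genes and the differences between them were thus kept by construction, which is no test of them.

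Levels of different genes were compared per kilobase of exon, taking the union of all annotated exons of a gene. In DMSO, B2M was the highest at 321 ± 25.9 CPM per kilobase, followed by HLA-B at 128 ± 6.86, TAP1 at 77.9 ± 2.57, HLA-C at 57.6 ± 0.976 and HLA-E at 49.6 ± 0.815. TAPBP (31.5 ± 1.57), TAP2 (23.3 ± 1.21), HLA-F (13.7 ± 0.713) and NLRC5 (6.09 ± 0.632 CPM per kilobase) were lower. No neighbours in this order overlapped between libraries. In AZD4573, HLA-C at 83.4 ± 1.13 CPM per kilobase passed TAP1 at 65.9 ± 0.422, and with this length the order of the other 7 genes was the same. B2M reached 514 ± 22.0 and HLA-B 187 ± 5.83 CPM per kilobase, and NLRC5 stood at 4.73 ± 0.392. When the length of the canonical transcript was used instead, TAPBP (60.7 CPM per kilobase) and HLA-E (56.9) overlapped in DMSO, as did TAP2 (42.8) and HLA-F (39.9), so the order of these pairs was not resolved. With that length in AZD4573, HLA-F (63.2) stood above TAP2 (46.8) and overlapped HLA-E (63.1), so the place of HLA-F depended on the length used.

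**Figure D4:**
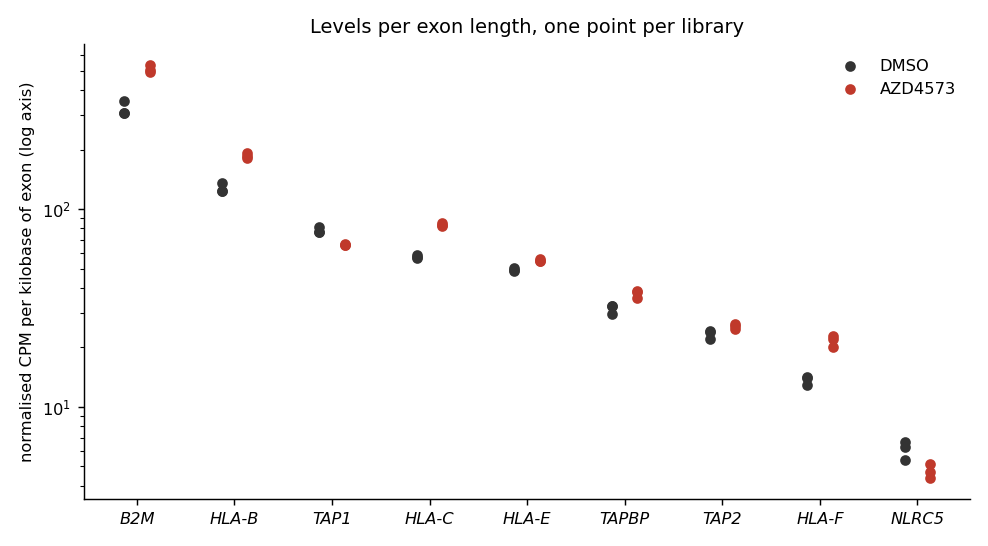
CPM per kilobase of exon (log axis) of the 9 genes in DMSO and AZD4573 libraries, ordered by the DMSO level; points are libraries. B2M is the highest at 321 CPM per kilobase in DMSO and NLRC5 the lowest at 6.09, and HLA-C and TAP1 change places in AZD4573.

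TAP1, TAP2 and the immunoproteasome genes PSMB8 and PSMB9 lie side by side in the class II region of the MHC, and their changes were unequal. From the start of the interval on chromosome 6 the order was TAP2, PSMB8 (529 bases from TAP1), and TAP1, which lies within the span of PSMB9 on the opposite strand without sharing exon bases with it. The log2 fold changes under TMM scaling were 0.13 for TAP2, 0.26 for PSMB8, -0.24 for TAP1 and 0.39 for PSMB9, so TAP1 was the sole gene of this block with a fall, whereas with mitochondrial scaling all 4 were lower (-0.61 for TAP2, -0.48 for PSMB8, -0.98 for TAP1 and -0.35 for PSMB9).

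Gene length was set against the fold changes. Over 17638 genes the rank correlation of genomic span with log2 fold change was -0.10, given as a description across genes of the same libraries, which are not independent. Over the 9 genes it was -0.37, and without NLRC5, whose span of 94047 bases was the longest, it was -0.10. Spans ran between the outermost ends of the GENCODE annotation. The RefSeq promoter windows of HLA-B and HLA-F lay inside these spans, so the annotations differed in where these genes start. The median log2 fold change was 0.27 for genes under 5000 bases, -0.17 for those of 50000 to 100000 bases and 0.04 for those above, so it did not fall steadily with length. The part of length in the values of the 9 genes was not tested.

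The other genes of the pathway were taken from 6 lists and read in the same fit. Of all genes tested, 37.4% were called lower and 37.3% higher under TMM scaling. Under mitochondrial scaling these shares were 67.2% and 12.1%. Peptide supply, which covers immunoproteasome subunits, proteasome activators and peptidases, held 9 of 11 genes higher and 1 lower under TMM scaling, with a median log2 fold change of 0.32, but under mitochondrial scaling 9 were lower, 0 were higher and the median was -0.42. ERAP2 and ERAP1, the ER aminopeptidases that trim peptides to length, went from 21.2 ± 0.706 to 37.6 ± 2.32 CPM (log2 0.82) and from 114 ± 1.57 to 160 ± 4.87 CPM (log2 0.49). PSME1, a subunit of the interferon-inducible proteasome activator, went from 116 ± 5.92 to 183 ± 8.16 CPM (log2 0.66), and PSMB9, an immunoproteasome catalytic subunit, from 97.6 ± 5.97 to 128 ± 2.48 CPM (log2 0.39). Under mitochondrial scaling the log2 values of these 4 genes were 0.08, -0.24, -0.08 and -0.35.

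ER folding and loading chaperones were split, with 4 of 8 genes lower, 3 higher and a median log2 fold change of -0.16. Of all genes, 37.4% were lower and 37.3% higher under TMM scaling. Under mitochondrial scaling all 8 were lower (median -0.90), against 67.2% of all genes. HSPA5 (BiP), the general chaperone of the ER, fell from 714 ± 39.4 to 430 ± 2.62 CPM (log2 -0.73), and TAPBPL, a tapasin homologue that edits peptides outside the loading complex, fell from 17.0 ± 1.20 to 12.5 ± 0.829 CPM (log2 -0.45). PRKCSH and GANAB, the subunits of the glucosidase that trims new glycoproteins for calnexin and calreticulin, were higher under TMM (log2 0.50 and 0.44) and lower under mitochondrial scaling (-0.24 and -0.30).

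Transcription factors and interferon signalling genes of class I held 14 of 17 genes lower and 2 higher under TMM scaling. Their median log2 fold change was -0.50, and 37.4% and 37.3% of all genes were called lower and higher. Under mitochondrial scaling all 17 were lower with a median of -1.23, against 67.2% of all genes called lower. IFNGR1, the ligand-binding chain of the interferon gamma receptor, was at 22.0, 20.7 and 19.8 CPM in DMSO and at 6.50, 5.21 and 4.00 CPM in AZD4573, a log2 fold change of -2.001. CREB1, a factor bound at CRE sites, fell from 51.3 ± 1.41 to 16.6 ± 2.23 CPM (log2 -1.63). RFXAP, a subunit of the RFX complex, fell from 17.8 ± 1.12 to 7.54 ± 0.526 CPM (log2 -1.24), and NFYA, a subunit of the CCAAT-binding factor NF-Y, from 55.2 ± 1.18 to 25.2 ± 0.783 CPM (log2 -1.13). The log2 fold change of NLRC5 (-0.37) was closer to 0 than those of these 4 factors, which were named as the largest of the list. The 2 genes called higher were the kinase JAK1 (log2 0.49) and the RFX subunit RFXANK (0.36), both of which were lower under mitochondrial scaling (-0.25 and -0.38), and the third RFX subunit, RFX5, had a log2 value of -0.08 (adjusted p = 0.0865 by edgeR).

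Genes for the surface removal of class I were lower in 4 of the 4 tested, of 5 on the list. The median log2 fold change was -0.48 under TMM and -1.22 under mitochondrial scaling. Of all genes, 37.4% were called lower under TMM and 67.2% under mitochondrial scaling. TMEM127, an adaptor of the ubiquitin ligase WWP2 that takes class I molecules off the surface together with SUSD6, was at 50.8, 50.0 and 49.6 CPM in DMSO and at 17.8, 17.0 and 17.0 CPM in AZD4573 (log2 -1.54). WWP2 itself went from 73.5 to 48.5 CPM (log2 -0.60). SUSD6 and the membrane ubiquitin ligase MARCHF9 had smaller changes, of -0.36 each.

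Of the class I-like molecules, 5 of 11 could be tested, and 4 were higher and 0 lower, against 37.3% and 37.4% of all genes. The median log2 fold change was 0.83. With mitochondrial scaling 1 was higher and 1 lower with a median of 0.09, against 12.1% and 67.2% of all genes. MR1, which presents vitamin B metabolites to MAIT cells, rose from 27.9 ± 0.168 to 52.9 ± 1.85 CPM (log2 0.92) and was also higher under mitochondrial scaling (log2 0.19, adjusted p = 0.0206 by edgeR). FCGRT, the heavy chain of the neonatal Fc receptor (2.35 to 4.32 CPM, log2 0.88), HFE, a regulator of iron uptake (0.889 to 1.58 CPM, log2 0.83), and the stress ligand MICA (2.44 to 4.10 CPM, log2 0.75) were at much lower levels. Several of these molecules pair with beta-2-microglobulin, as MR1, FCGRT and HFE do. Of the receptors of class I, 3 of 8 could be tested, and CD160 was the 1 gene called, rising from 0.268 ± 0.116 to 0.975 ± 0.216 CPM (log2 1.86 with TMM and 1.13 with mitochondrial scaling), on 13 to 29 counts per library in DMSO and 45 to 74 in AZD4573.

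**Figure D5:**
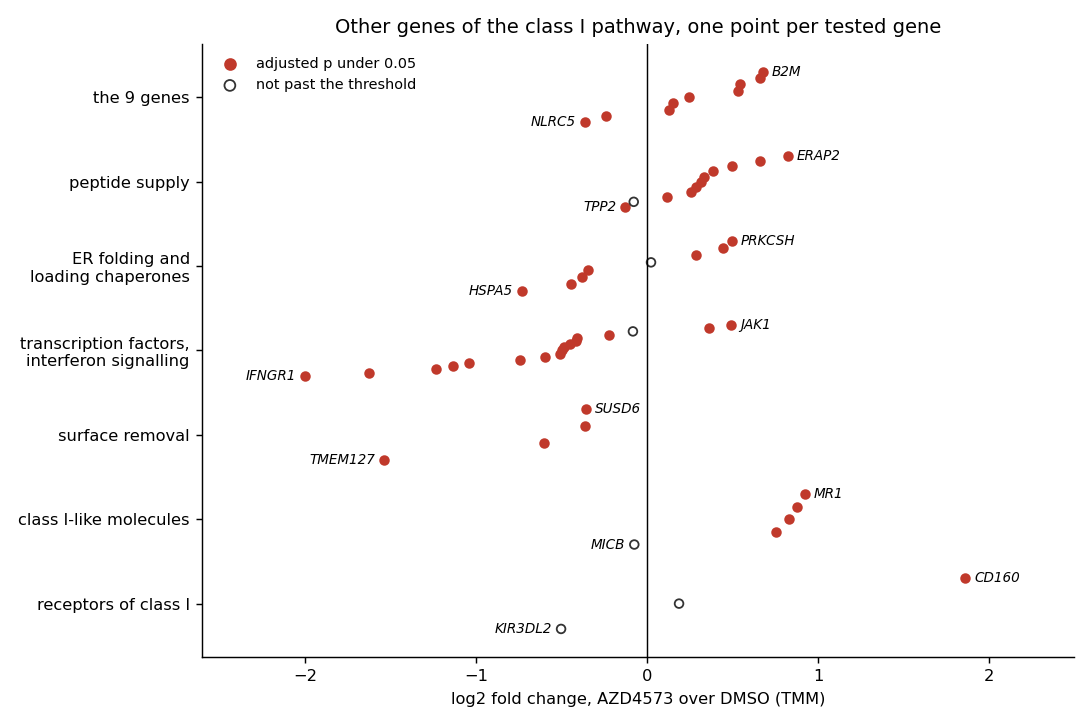
Log2 fold change (AZD4573 minus DMSO, TMM scaling) of every tested gene of the 9-gene set and of the 6 lists around it; each point is a gene, filled where it passed an adjusted p of 0.05 and open where it did not, and the outermost genes are named. Transcription factors and interferon signalling genes lie mostly below 0, down to IFNGR1, peptide supply mostly above 0, up to ERAP2 at 0.82, and the 9 genes run from NLRC5 at -0.37 to B2M at 0.68.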

How the data were processed

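Poly(A) RNA per the labels (the study's supplemental methods name rRNA depletion) of H9 cells was sequenced by the authors, trimmed with cutadapt 2.3, aligned with STAR 2.7.8a and quantified with RSEM 1.3.3. The deposited values were expected counts per gene, not normalised, and were whole numbers. Reads of near-identical class I genes and of genes with shared exons are divided by RSEM's model, so these counts carry that uncertainty, and strand-specific counting was not stated. The 9 genes and all lists were chosen with earlier results of these data known. The table's 5 reporter entries, with 0 counts, were left out. Each symbol was matched to 1 gene, and every one of the 9 genes passed the filter on low counts.

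Counts were filtered with filterByExpr (minimum count 10), scaled with TMM and tested with edgeR 4.0.16 (quasi-likelihood test, R 4.3.3) on all 6 libraries without a replicate block. P-values were adjusted over all 17678 tested genes by the Benjamini-Hochberg method and called at 0.05. SE was the log2 fold change over the root of F, and intervals were 95%. The test was run on simulated counts first. Ratios within a library were compared by two-sided exact permutation tests. Alternatives to the scaling were RLE size factors in edgeR, library size and mitochondrial mRNA scaling. Further alternatives were no filter, a filter of 10 counts in every library, a replicate block, DESeq2 1.42.0 and leaving out each library. Fold changes of at least 1.5 and 2 were also applied. Adding the counts of genes with shared exons and using canonical transcript lengths were chosen after seeing the data. Genes named from a list were up to 4 with the largest absolute log2 fold change among those called, and the 5 genes most like NLRC5 were those with 10 CPM or more and the highest Pearson correlation, of which 4 are reported here. PSMB8, RFX5, JAK1, RFXANK, the promoters printed and the markers singled out were picked after their values were seen. Gene positions are from GENCODE 44 (GRCh38) and promoters from RefSeq (GRCh38.p14).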

Additional observations from a re-analysis of the deposited data

How the results depend on the processing

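Of 122 values of the 9 genes under the alternatives, 108 were of the same direction with the same call. The 7 that changed direction all came from mitochondrial mRNA scaling, with log2 fold changes of -0.19 for HLA-B, -0.20 for HLA-C, -0.59 for HLA-E, -0.080 for HLA-F, -0.062 for B2M, -0.61 for TAP2 and -0.49 for TAPBP. This scaling divides every gene of the AZD4573 libraries by a larger factor. The 7 calls lost were those of HLA-E with library size alone (0.047) and without a filter (0.109), and of TAP2 with library size alone (0.024), without a filter (0.087) and without DMSO replicate 1, AZD4573 replicate 1 or AZD4573 replicate 2 (0.075 to 0.147 over the 6 libraries left out), and the cause was not tested. TAP1 and NLRC5 were lower under every alternative run. Deviations from the group mean correlated at -0.0208, 0.0417 and 0.0316 for equal replicate numbers and at -0.0551 to 0.0199 for unequal ones. No strong pairing of the libraries by number was seen, and these values do not show that there was none. With a replicate block, 2 of the 9 genes were lower and 7 higher, and 6524 genes were lower and 6447 higher in all.

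With mitochondrial scaling 7 of the 9 genes were lower and 0 higher, against 11878 and 2144 of all genes. The lists then held 9 lower and 0 higher for peptide supply, 8 lower and 0 higher for ER chaperones, 0 higher for transcription factors, 1 lower and 1 higher for class I-like molecules, and 1 lower for receptors. At a fold change of at least 1.5, the counts were 0 lower and 2 higher of the 9 genes, 4191 and 4012 of all genes, 0 and 2 for peptide supply, 1 and 0 for ER chaperones, 7 and 0 for transcription factors, and 2 lower for surface removal. At 2-fold they were 0 and 0 of the 9 genes, 2450 and 2643 of all genes, 0 and 0 for peptide supply, 0 and 0 for ER chaperones, 5 and 0 for transcription factors, 1 lower for surface removal and 0 higher for class I-like molecules. Peptide supply had 2 genes lower with library size alone, without a filter and with DESeq2, 0 with 10 counts in every library, and 0 to 2 when single libraries were left out (2 without DMSO replicate 1). With library size alone, class I-like molecules and receptors each had 1 gene lower. Summing several rows of a symbol gave nothing to compare, since each symbol had 1 row. Intervals cover the spread between 3 libraries a group, and the ratio tests cannot go below p = 0.1 by exact permutation.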

Other observations

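Among 9505 genes with a symbol and at least 10 CPM in the higher group, genes whose log2 CPM over the 6 libraries was most like that of NLRC5 included PITPNM2 (Pearson r = 0.995), DGKA (0.993), PLEKHG2 (0.992) and ZBTB40 (0.991). Their log2 fold changes were -0.40, -0.26, -0.26 and -0.30. The 6 points fall into the 2 treatment groups and share their depths, so these values are a description without a test.

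The ratio of TAP1 to its neighbour PSMB9, chosen after the values were seen, was 3.68, 3.93 and 3.75 in DMSO and 2.48, 2.48 and 2.39 in AZD4573. It moved from 3.79 ± 0.126 to 2.45 ± 0.0535, a log2 change of -0.63 without overlap (exact permutation p = 0.1, the smallest that 3 against 3 allows).

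ENSG00000289100, the gene antisense to TAPBP, had a log2 fold change of 1.12, and the readthrough gene of TAP2 and HLA-DOB one of 0.24. The table held 19 annotated class I pseudogenes, 12 of them with 0 counts in every library. The pseudogenes summed to 185, 215 and 186 counts in DMSO and 88, 92 and 100 in AZD4573, which was 0.240% to 0.319% and 0.120% to 0.134% of the counts of the 4 heavy chains. The pseudogene HLA-L, with 2.25 CPM in DMSO and 1.10 CPM in AZD4573, had a log2 fold change of -1.04. HLA-G, the non-classical heavy chain of the trophoblast, had 0 counts in all 6 libraries, which allows up to 0.0392 to 0.0576 CPM.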
